A study of Mus musculus with 12 samples.

Results

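The 10 genes described here are the metallothioneins Mt1, Mt2 and Mt3 and the antioxidant genes Hmox1, Nqo1, Gclc, Gclm, Slc7a11, Txnrd1 and Srxn1. They were taken by name from a table of 55862 mouse genes, and all 10 were found. RNA of 12 samples from mouse brain was sequenced, 3 samples in each of 4 groups, to compare astrocytes before and after culture as spheres with neural precursor cells as positive controls. ASTs were astrocytes cultured with serum from the cerebral cortex of newborn mice and taken at day 0 of incubation, as the negative control. A-iSCs were the same kind of astrocytes after 5 days as free spheres on agarose. P56-NPCs were from the dissociated subependymal zone of adults (postnatal day 56), and P0-NPCs from the dissociated hippocampus of newborns (postnatal day 0). The labels give the strain of all samples as C57BL/6, while the methods name C57BL/6 for the astrocytes and C57BL/6J for both NPC groups, so a difference of substrain cannot be told apart from the groups. No group carried a transgene, deletion or drug that the labels name. The methods describe the NPC groups as suspensions of dissected tissue and name no step that sorted cells by a marker. P56-NPCs were taken up in culture medium with B27 at the end, and the time from dissociation to RNA isolation is not given in the sources used here. The methods speak of independent experiments for the study as a whole, but neither they nor the labels say whether the 3 sequenced samples of a group came from separate cultures or animals, so the p-values below measure the spread between these samples, which may be technical.

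Metallothioneins are short proteins rich in cysteine that bind zinc and copper. Mt1 and Mt2 are switched on in many tissues by metals, through the zinc sensor MTF1, and by glucocorticoids and stress, and Mt3 is the form known for the brain. The other genes are classical targets of the factor NRF2 (gene Nfe2l2), which KEAP1 holds back until oxidants or electrophiles release it. Their products break down haem (Hmox1), reduce quinones (Nqo1), import cystine (Slc7a11), make glutathione (Gclc and Gclm), reduce thioredoxin (Txnrd1) and repair overoxidised peroxiredoxins (Srxn1). BACH1, which haem inactivates, represses Hmox1.

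The coding sequences of the 3 metallothioneins are shown because they make visible what these genes share and how far their reads could be told apart. They are from GENCODE M21 on GRCm38, plus strand, with cysteine codons in capitals, and the positions include the introns. The Mt1 coding sequence lies within chr8:94179311-94180193, that of Mt2 within chr8:94172848-94173427 and that of Mt3 within chr8:94152800-94154010, each in 3 exons.
Mt1: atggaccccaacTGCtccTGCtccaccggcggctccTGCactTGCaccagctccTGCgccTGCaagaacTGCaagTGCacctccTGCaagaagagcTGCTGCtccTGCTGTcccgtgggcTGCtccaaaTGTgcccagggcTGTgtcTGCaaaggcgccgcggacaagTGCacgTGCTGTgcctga
Mt2: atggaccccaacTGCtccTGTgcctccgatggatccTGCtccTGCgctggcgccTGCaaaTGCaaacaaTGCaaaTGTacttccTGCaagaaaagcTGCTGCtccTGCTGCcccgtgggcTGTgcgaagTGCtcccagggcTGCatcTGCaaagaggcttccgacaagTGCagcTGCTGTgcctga
Mt3: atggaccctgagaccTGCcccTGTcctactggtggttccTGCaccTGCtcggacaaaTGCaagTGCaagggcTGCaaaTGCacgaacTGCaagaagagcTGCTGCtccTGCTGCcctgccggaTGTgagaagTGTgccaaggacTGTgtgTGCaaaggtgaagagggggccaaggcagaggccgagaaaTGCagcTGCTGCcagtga
Of the 61 codons before the stop of Mt1, 20 code for cysteine (32.8%). Mt2 has the same numbers, and Mt3 has 20 cysteine codons among 68 (29.4%). Mt1 and Mt2 were identical at 79.6% of aligned coding positions, Mt1 and Mt3 at 66.2%, and Mt2 and Mt3 at 67.6%. The longest run of identical bases was 20 for Mt1 and Mt2, 27 for Mt1 and Mt3 and 20 for Mt2 and Mt3, over whole transcripts.

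Expression is given in FPKM, the fragments of a gene per kilobase of its length, scaled to the size of the library. The values had been scaled between samples by the authors, since the library size behind them was 0.744 to 1.218 times the fragments counted. Between 17077780 and 24452419 fragments were counted on genes per sample. Over a length of 1 kilobase, a count of 3 fragments equalled 0.103 to 0.187 FPKM, a floor that allows for counting error alone. AST replicate 2 and A-iSC replicate 3 lay apart from the rest of their groups for several of the 10 genes. Markers of cell types were summed per sample to check the labels. The 8 astrocyte markers summed to 143 to 161 FPKM in ASTs, 1211 to 2466 in A-iSCs, 2834 to 3072 in P56-NPCs and 238 to 303 in P0-NPCs. The sum was lowest in ASTs, so these markers do not single out ASTs as the astrocyte group. Aqp4, Gja1, Aldh1l1 and S100b had higher means in ASTs than in P0-NPCs, while Gfap, Aldoc, Slc1a2 and Slc1a3 had lower ones. The 5 neural precursor markers were lowest in the adult group, at 107 to 134 FPKM in P56-NPCs against 202 to 214 in P0-NPCs and 282 to 347 in ASTs and A-iSCs. P56-NPCs held 8430 to 9633 FPKM of the 5 oligodendrocyte markers, against 75.8 or less in all other samples, so the data go against a description of this group as precursors alone.

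Differences were tested with limma on log2(FPKM + 1), so log2 fold changes are on that scale and understate the change of genes near 0. Each comparison covered genes with a mean of at least 1 FPKM in at least 1 of its groups, and all 10 genes passed this in all 6 comparisons. A gene was called when its Benjamini-Hochberg adjusted p over all genes tested was under 0.05. A-iSCs differed from ASTs in 7 of the 10 genes, of which 5 were higher (Mt1, Mt2, Slc7a11, Gclc, Srxn1) and 2 lower (Txnrd1, Hmox1). Among all genes tested in that comparison 54.8% were called, 25.2% higher and 29.6% lower. The median log2 fold change was 0.38 over the 10 genes and -0.06 over all genes tested. P56-NPCs differed from ASTs in all 10 genes, 4 higher and 6 lower, where 78.9% of all genes were called, 39.1% higher and 39.8% lower. Here the medians were -0.46 for the 10 genes and -0.03 for all genes. P0-NPCs had 1 of the 10 genes higher than ASTs and 9 lower, where 79.0% of all genes were called, 38.1% higher and 40.9% lower. The medians were -1.61 and -0.07.

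Set against the NPC groups, the spheres were the group with more of these transcripts or did not differ by the test. A-iSCs had 5 of the 10 genes higher than P56-NPCs and 0 lower, where 61.0% of all genes were called, 30.1% higher and 30.9% lower, with medians of 0.85 and 0.03. At an unadjusted p under 0.05 limma also gave 0 of the 10 lower, and limma-voom on the fragments called 0 lower. A-iSCs had all 10 genes higher than P0-NPCs, where 65.1% of all genes were called, 31.5% higher and 33.6% lower, with medians of 2.64 and -0.02. Between the NPC groups, 8 genes were higher in P56-NPCs and 2 were lower (Hmox1 and Txnrd1), where 78.8% of all genes were called, 39.7% higher and 39.0% lower, with medians of 1.08 and 0.01. With scaling by library size alone, Gclc (0.04) and Nqo1 (0.17) were not called in this comparison. The comparisons share samples and are not independent of each other. In bulk RNA, fewer cells of a type and less RNA per cell cannot be told apart.

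**Figure D1:**
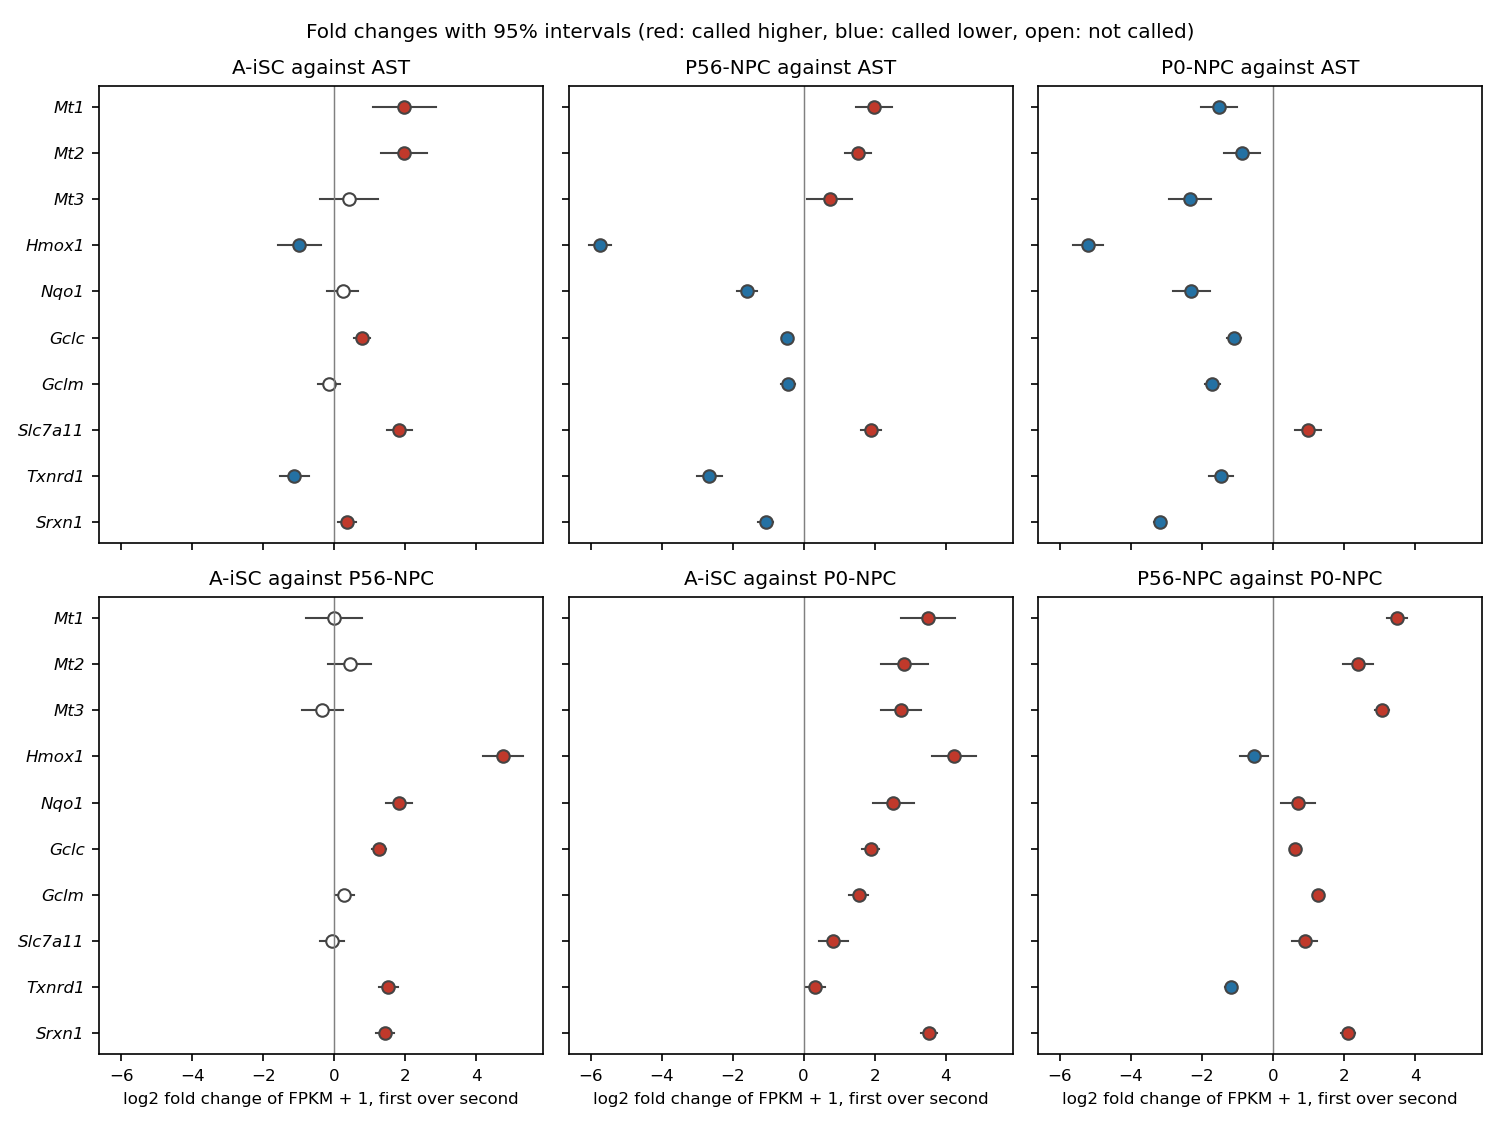
Log2 fold change of FPKM + 1 (horizontal axis, first group over second) for the 10 genes in 6 comparisons, with 95% intervals as lines. Red points were called higher, blue points lower and open points were not called. A-iSCs had all 10 genes above P0-NPCs, while Mt1, Mt2, Mt3, Gclm and Slc7a11 were not called against P56-NPCs, where Mt1, Mt3 and Slc7a11 change sign with scaling by library size alone.

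The metallothionein genes lie side by side on chromosome 8 on the plus strand, Mt3 at chr8:94152607-94154146, Mt2 at chr8:94172664-94173568 and Mt1 at chr8:94179082-94180327 (GRCm38). Mt1 was among the most abundant transcripts of the spheres. It had 259.6, 414 and 243 FPKM in AST replicates 1 to 3 and 1622, 1481 and 671 FPKM in A-iSC replicates 1 to 3. It had 1144, 1076 and 1317 FPKM in P56-NPCs and 98.4, 93.8 and 119 FPKM in P0-NPCs. Every A-iSC and P56-NPC sample was above every AST sample, every AST sample was above every P0-NPC sample, and A-iSC replicate 3 was lower than its group and below all P56-NPC samples. The rise from ASTs to A-iSCs was 4.12-fold in the means, or 1.98 on the log2 scale (standard error 0.38, adjusted p = 0.00372). Against ASTs the log2 fold change was also 1.98 in P56-NPCs (adjusted p = 0.000109) and -1.52 in P0-NPCs (adjusted p = 0.000287). Mt1 ranked 17 to 31 among all genes by FPKM in the A-iSC samples, 25 to 34 in P56-NPCs, 113 to 174 in ASTs and 270 to 330 in P0-NPCs.

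A-iSCs and P56-NPCs were not separated by Mt1. Their log2 difference was -0.00 with a 95% interval of -0.79 to 0.79 (adjusted p = 0.995), so differences of either sign within that interval were not detectable here. It changed sign with the scaling, to 0.56 by library size alone and 0.02 by the upper quartile. Without A-iSC replicate 3 it was 0.40 and called (adjusted p = 0.023).

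Mt2 rose beside its neighbour at a lower level. It had 20.0, 16.5 and 12.8 FPKM in ASTs, 92.5, 70.5 and 44.3 in A-iSCs, 52.8, 43.9 and 49.7 in P56-NPCs and 6.10, 8.76 and 10.9 in P0-NPCs. The order of the groups was that of Mt1, with no overlap between ASTs and any other group and an overlap between A-iSCs and P56-NPCs. The log2 fold change over ASTs was 1.97 in A-iSCs (standard error 0.28, adjusted p = 0.000901), 1.53 in P56-NPCs (adjusted p = 7.58e-05) and -0.87 in P0-NPCs (adjusted p = 0.00589). A-iSCs were 0.44 above P56-NPCs without a call (95% interval -0.16 to 1.03, adjusted p = 0.173), and were called at 0.72 without A-iSC replicate 3 (adjusted p = 0.00314) and at 0.98 with scaling by library size alone. Of the 588 annotated exon bases of Mt2, 432 are shared with the antisense gene Gm45774, which was credited with 3 to 77 fragments per sample against 82 to 1096 for Mt2. The sources do not state whether strand was used in counting, so the level of Mt2 is uncertain. The ratio of Mt1 to Mt2 was 19.0 ± 6.03 (SD, n = 3) in ASTs and 17.9 ± 2.95 in A-iSCs (exact two-sided permutation p = 0.9).

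Mt3, in contrast to Mt1 and Mt2, was not called between ASTs and A-iSCs, and its difference depended on single samples. It had 426, 835 and 437 FPKM in ASTs, 907, 821 and 485 in A-iSCs, 891, 845 and 953 in P56-NPCs and 111, 103 and 101 in P0-NPCs. ASTs and A-iSCs overlapped, because AST replicate 2 lay between the 2 upper A-iSC samples and A-iSC replicate 3 was near the 2 lower AST samples. The difference of 0.41 between them was not called (95% interval -0.41 to 1.22, adjusted p = 0.355). Leaving out AST replicate 2 gave 0.72 (adjusted p = 0.0886), and leaving out A-iSC replicate 3 gave 0.68 (adjusted p = 0.116). The fits without any 1 of the other samples gave 0.23 to 0.30. P56-NPCs were 0.74 above ASTs (adjusted p = 0.0362), a call that was lost on leaving out any other single sample than AST replicate 2 (0.57 to 0.78), without the filter (adjusted p = 0.0922) and with either other scaling (0.39 by library size alone and 0.58 by the upper quartile). Without AST replicate 2 it was 1.05. P0-NPCs had far less, with a log2 fold change against ASTs of -2.34 (adjusted p = 6.32e-05). A-iSCs and P56-NPCs overlapped, with a difference of -0.33 that was not called (95% interval -0.90 to 0.24, adjusted p = 0.273) and that turned to 0.23 with scaling by library size alone. It was -0.05 without A-iSC replicate 3 and -0.50 without A-iSC replicate 1. The remaining family member in the table, Mt4, had 0 to 2 fragments per sample.

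Within each sample, the balance of Mt1 and Mt3 differed between the groups. The FPKM ratio of Mt1 to Mt3 was 0.610, 0.496 and 0.556 in ASTs and 1.79, 1.80 and 1.38 in A-iSCs. It was 1.28, 1.27 and 1.38 in P56-NPCs and 0.884, 0.906 and 1.17 in P0-NPCs. Every AST sample lay below every sample of the other groups, including AST replicate 2, whose Mt1 and Mt3 were both high. Mt3 made up 60.4 to 66.0% of the summed FPKM of the 3 genes in ASTs and 34.6 to 40.4% in A-iSCs. An exact two-sided permutation test of 3 samples against 3 cannot give a p under 0.1, which is what the ratio gave (p = 0.1). The level of the ratio depends on the gene lengths used (1246 bases for Mt1 and 1066 for Mt3, all annotated exons together, where their coding transcripts span 549 to 1085 and 440 to 536 bases), but this factor is the same in all samples. The summed FPKM of the 3 genes overlapped between ASTs (692 to 1265) and A-iSCs (1200 to 2621), with an exact permutation p of 0.2. The overlap came from AST replicate 2 (1265) and A-iSC replicate 3 (1200), as the other AST samples were at 692 and 705.

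The bases before the RefSeq starts of the 3 genes are shown to mark matches to the motif of MTF1, which switches on Mt1 and Mt2. Whether these matches bear on the levels of the 3 transcripts was not tested. The sequences are from RefSeq on GRCm38.p6, plus strand, 250 bases each, chr8:94178839-94179088 for Mt1, chr8:94172368-94172617 for Mt2 and chr8:94152357-94152606 for Mt3. Capitals mark matches on either strand to TGCNCNC, the core of the metal response element that MTF1 binds.
Mt1: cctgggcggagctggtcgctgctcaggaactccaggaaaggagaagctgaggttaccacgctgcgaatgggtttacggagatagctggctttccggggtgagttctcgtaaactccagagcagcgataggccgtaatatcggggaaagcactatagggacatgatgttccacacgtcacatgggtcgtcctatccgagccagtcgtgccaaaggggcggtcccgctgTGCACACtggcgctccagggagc
Mt2: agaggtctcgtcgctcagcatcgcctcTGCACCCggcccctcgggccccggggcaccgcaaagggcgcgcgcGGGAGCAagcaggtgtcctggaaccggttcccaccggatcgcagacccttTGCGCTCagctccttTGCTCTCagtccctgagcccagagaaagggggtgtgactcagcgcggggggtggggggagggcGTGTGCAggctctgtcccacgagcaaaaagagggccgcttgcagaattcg
Mt3: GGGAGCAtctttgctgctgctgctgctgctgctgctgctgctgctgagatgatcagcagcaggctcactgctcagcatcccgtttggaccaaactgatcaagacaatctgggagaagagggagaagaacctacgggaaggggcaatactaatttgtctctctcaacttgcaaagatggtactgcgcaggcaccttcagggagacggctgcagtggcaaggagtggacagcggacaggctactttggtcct
Mt2 held 5 matches in this stretch, and Mt1 and Mt3 held 1 each. With the 50 bases after the start included, Mt2 held 6 and Mt1 and Mt3 held 3 each. Windows of 300 bases (250 before and 50 after a start) were given for 8 of the 10 genes, in 10 windows. TGCNCNC was in 51.0% of all 32851 windows and in 8 of those 10. TGACNNNGC, the core of the antioxidant response element, was in 12.4% of all windows and in 4 of the 10, of Srxn1, Gclm, Mt2 and Txnrd1. The RefSeq start of Mt1 lies inside the gene as GENCODE places it, that of Mt2 lies before it and that of Mt3 coincides, and each gene has more than 1 annotated transcript, so the numbers of matches hold for these windows only. The marked matches overlapped neither each other nor the TGACNNNGC match of Mt2. A match describes letters in the sequence and is not evidence of binding.

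**Figure D2:**
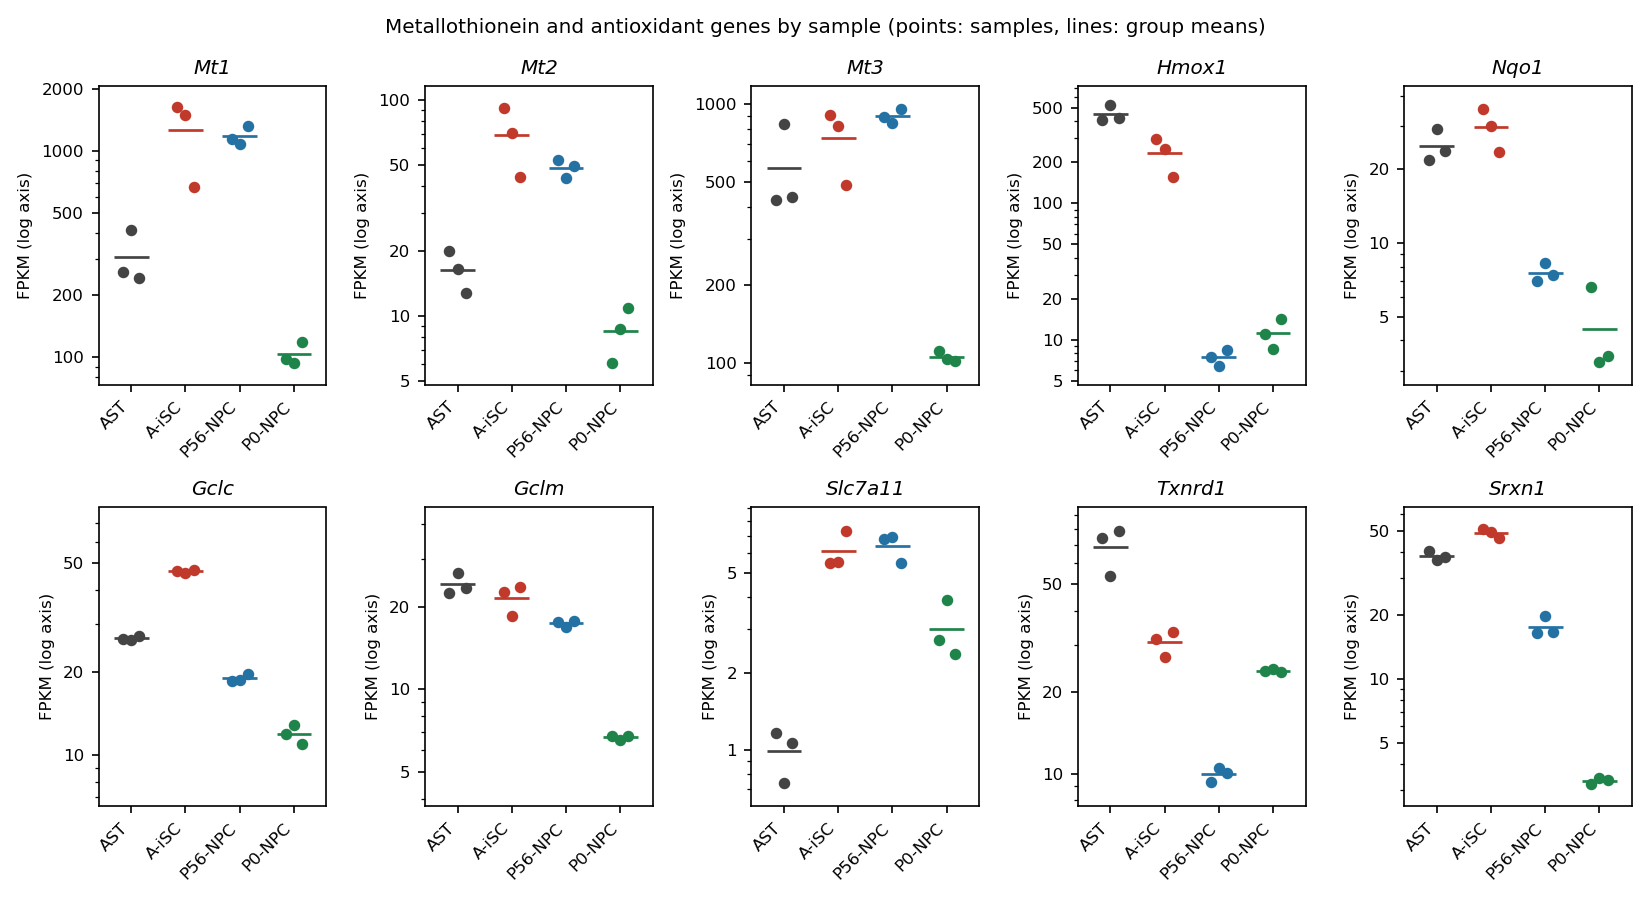
FPKM on a log axis for the 10 genes in each of the 12 samples (points), with group means as lines. Mt1 in A-iSCs (671 to 1622 FPKM) lay above all ASTs (243 to 414 FPKM), Hmox1 was at 404 to 526 FPKM in ASTs and at 14.3 FPKM or less in the NPC groups, and Slc7a11 was lowest in ASTs.

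Hmox1 (chr8:75093621-75100589, plus strand), the inducible haem oxygenase that turns haem into biliverdin, iron and carbon monoxide, was abundant in ASTs and A-iSCs. It had 404, 526 and 423 FPKM in ASTs and 297, 251 and 155 in A-iSCs. In the NPC groups it had 7.47, 6.48 and 8.43 FPKM in P56-NPCs and 11.1, 8.57 and 14.3 in P0-NPCs. No 2 groups overlapped, and the lowest A-iSC sample was more than 10 times as high as the highest NPC sample. The log2 fold change of A-iSCs over ASTs was -0.98 (standard error 0.26, adjusted p = 0.0157), and without AST replicate 2 the value was -0.87 at an adjusted p of 0.05, no longer called. Against ASTs it was -5.74 in P56-NPCs (adjusted p = 5.84e-08) and -5.21 in P0-NPCs (adjusted p = 1.51e-07). The spheres were 31.5-fold above P56-NPCs and 20.7-fold above P0-NPCs in the means. P56-NPCs were slightly below P0-NPCs (-0.52, adjusted p = 0.0224), a call lost without the filter (adjusted p = 0.0593), with all groups in the fit (adjusted p = 0.0597) and without P56-NPC replicate 1 or 2 or P0-NPC replicate 1 or 3 (-0.53 to -0.35).

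Hmox2, the constitutive haem oxygenase, did not follow. Its FPKM was 13.0 ± 0.325 (SD, n = 3) in ASTs, 18.8 ± 0.710 in A-iSCs, 28.0 ± 1.19 in P56-NPCs and 12.4 ± 0.730 in P0-NPCs. The ratio of Hmox1 to Hmox2 was therefore 31.7 to 39.4 in AST samples, 7.94 to 16.2 in A-iSC samples, 0.232 to 0.289 in P56-NPC samples and 0.688 to 1.096 in P0-NPC samples. The ratio was above 1 in every AST and A-iSC sample and below 1 in every P56-NPC sample. Markers of haemoglobin-bearing cells moved the other way, since the 5 red blood cell markers summed to 163 to 565 FPKM in the NPC groups and to 0.548 or less in ASTs and A-iSCs. In the latter, Hbb-bt was listed at 0 in all samples. The 7 microglial markers summed to 96.6 to 128 FPKM in ASTs, where P2ry12 and Trem2 had means under 1 FPKM, and to 1085 to 1498 in A-iSCs, 435 to 459 in P56-NPCs and 63.7 to 74.0 in P0-NPCs. C1qa made up most of the sum in A-iSCs, with a mean of 1029 FPKM. Of the 7 markers, 5 had a higher mean in A-iSCs than in P56-NPCs (C1qa, Cx3cr1, Csf1r, Aif1 and Trem2), while P2ry12 (7.30 against 60.2 FPKM) and Tmem119 (16.8 against 52.2 FPKM) had a lower one. The 5 fibroblast markers summed to 147 to 198 FPKM in ASTs, mostly Col1a1, and to 4.67 to 5.73 in A-iSCs, 4.33 to 10.5 in P56-NPCs and 109 to 122 in P0-NPCs. The part of astrocytes, microglia, oligodendrocytes, fibroblasts and blood cells in the levels of the 10 genes was not tested.

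Nqo1 (chr8:107388225-107403206, minus strand), which reduces quinones to hydroquinones, separated ASTs and A-iSCs from the NPC groups and did not separate them from each other. Its FPKM was 21.8, 29.2 and 23.8 in ASTs and 35.4, 30.1 and 23.5 in A-iSCs. It was 6.97, 8.30 and 7.43 in P56-NPCs and 6.59, 3.27 and 3.46 in P0-NPCs. ASTs and A-iSCs overlapped, while every NPC sample was below every sample of either. A-iSCs exceeded ASTs by 0.23 without a call (95% interval -0.19 to 0.66, adjusted p = 0.304), and by 0.39 without A-iSC replicate 3 (adjusted p = 0.0623). They exceeded P56-NPCs by 1.82 (adjusted p = 6.14e-05) and P0-NPCs by 2.53 (adjusted p = 6.33e-05). The excess of P56-NPCs over P0-NPCs (0.70, adjusted p = 0.0157) rested on 188 to 207 fragments per P56-NPC sample and 148 to 234 per P0-NPC sample. It was not called with scaling by library size alone (0.17) or without P56-NPC replicate 2, P0-NPC replicate 2 or P0-NPC replicate 3 (0.56 to 0.64).

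Glutathione supply starts with cystine. Slc7a11 (chr3:49892526-50443614, minus strand) encodes xCT, the light chain of the cystine and glutamate exchanger, and it was lowest in ASTs. It had 1.16, 0.740 and 1.06 FPKM in ASTs, 5.48, 5.50 and 7.32 in A-iSCs, 6.76, 6.88 and 5.43 in P56-NPCs and 2.71, 3.88 and 2.38 in P0-NPCs. The AST samples, with 209 to 274 fragments, lay below all others, P0-NPCs lay between, and A-iSCs overlapped with P56-NPCs. The means of A-iSCs and ASTs differed 6.18-fold, or 1.83 on the log2 scale (standard error 0.15, adjusted p = 5.78e-05). Against ASTs it was 1.89 in P56-NPCs (adjusted p = 5.88e-06) and 0.99 in P0-NPCs (adjusted p = 0.000511), the only one of the 10 genes called higher in P0-NPCs. A-iSCs and P56-NPCs differed by -0.06 (95% interval -0.39 to 0.28, adjusted p = 0.748), which became 0.42 and was called (adjusted p = 0.0283) with scaling by library size alone.

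Slc3a2, the heavy chain that carries xCT and several other transporters, was not called between A-iSCs and ASTs (log2 fold change -0.12, adjusted p = 0.583). Its mean was 103 FPKM in ASTs, 96.1 in A-iSCs, 57.6 in P56-NPCs and 42.5 in P0-NPCs. Against ASTs it was lower in P56-NPCs (-0.83, adjusted p = 7.8e-05) and P0-NPCs (-1.26, adjusted p = 9.12e-06). The ratios of the NPC groups therefore also rest on a lower Slc3a2. The ratio of Slc7a11 to Slc3a2 was 0.00968 ± 0.00264 (SD, n = 3) in ASTs, 0.0667 ± 0.0259 in A-iSCs, 0.110 ± 0.00870 in P56-NPCs and 0.0712 ± 0.0227 in P0-NPCs. Even the lowest sample outside ASTs (0.0502) was above the highest AST sample (0.0115).

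Gclc (chr9:77754535-77794485, plus strand) and Gclm (chr3:122245557-122270732, plus strand) encode the catalytic and the modifier subunit of glutamate-cysteine ligase, the rate-limiting enzyme of glutathione synthesis. Gclc varied little within groups, at 26.6, 26.3 and 27.2 FPKM in ASTs and 46.9, 46.1 and 47.2 in A-iSCs. It had 18.6, 18.7 and 19.7 FPKM in P56-NPCs and 11.9, 12.9 and 11.01 in P0-NPCs. The 4 groups did not overlap, and A-iSCs were the highest. The log2 fold change of A-iSCs was 0.79 over ASTs (standard error 0.10, adjusted p = 0.000527), 1.25 over P56-NPCs (adjusted p = 1.92e-05) and 1.89 over P0-NPCs (adjusted p = 3.49e-06). Both NPC groups were below ASTs, at -0.47 (adjusted p = 0.000344) and -1.10 (adjusted p = 8.06e-06).

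Gclm did not rise with Gclc in the spheres. It had 22.5, 26.5 and 23.4 FPKM in ASTs, 22.6, 18.6 and 23.7 in A-iSCs, 17.7, 16.8 and 17.8 in P56-NPCs and 6.79, 6.54 and 6.77 in P0-NPCs. ASTs and A-iSCs overlapped, all P56-NPC samples were below them, and P0-NPCs were lowest. The difference of A-iSCs from ASTs was -0.16 (95% interval -0.47 to 0.16, adjusted p = 0.353) and turned to 0.05 with scaling by library size alone. Against P56-NPCs it was 0.29 and not called (adjusted p = 0.0605), though called with either other scaling, with all groups in the fit (adjusted p = 0.0209) and without A-iSC replicate 2. The log2 fold change of P0-NPCs over ASTs was -1.70 (adjusted p = 8.66e-07). Gclm shares 540 of its 6291 exon bases with Gm17494 and Gm6061, which were credited with 15 to 99 and 0 fragments per sample, against 977 to 3993 for Gclm.

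The ratio of Gclc to Gclm was 1.18, 0.993 and 1.16 in ASTs and 2.07, 2.48 and 1.996 in A-iSCs. It was 1.05, 1.11 and 1.11 in P56-NPCs and 1.75, 1.97 and 1.62 in P0-NPCs. ASTs and P56-NPCs had the lower ratios and A-iSCs and P0-NPCs the higher ones, with no overlap between these pairs of groups. The level of the ratio depends on the gene lengths used (3766 bases for Gclc and 6291 for Gclm, whose coding transcripts span 292 to 5589 bases), so it does not say which subunit was in excess. The spheres were above ASTs in all samples (exact two-sided permutation p = 0.1, the smallest possible).

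**Figure D3:**
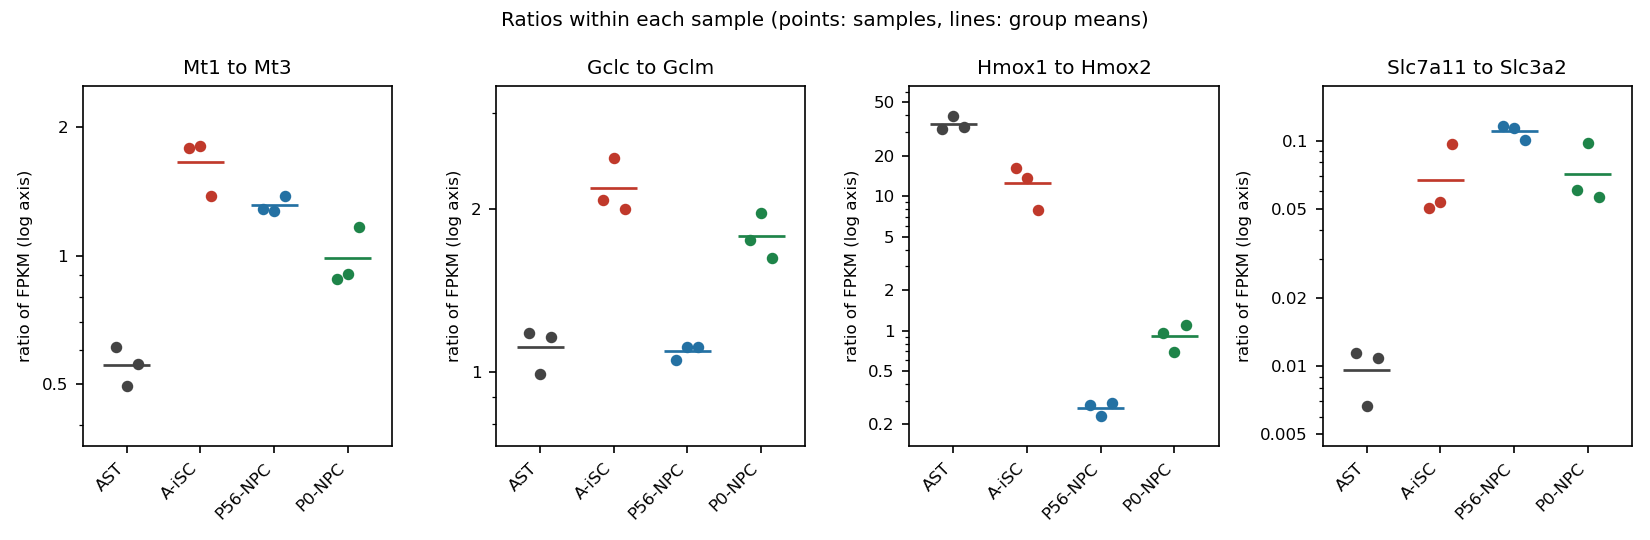
Ratio of FPKM between paired genes within each of the 12 samples (points), with group means as lines, on log axes. Mt1 to Mt3 was 0.496 to 0.610 in ASTs and 1.38 to 1.80 in A-iSCs, and Gclc to Gclm was 0.993 to 1.18 and 1.996 to 2.48, while Hmox1 to Hmox2 was highest in ASTs and lowest in P56-NPCs.

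Txnrd1 (chr10:82833951-82897712, plus strand) encodes the cytosolic thioredoxin reductase, a selenoenzyme that keeps thioredoxin reduced with NADPH. It was highest in ASTs, at 74.5, 53.6 and 78.5 FPKM, and lower in A-iSCs, at 31.5, 27.1 and 33.5. It had 9.31, 10.6 and 10.04 FPKM in P56-NPCs and 24.0, 24.3 and 23.8 in P0-NPCs. The 4 groups did not overlap, although A-iSC replicate 2 came near the P0-NPC samples. Over ASTs, the log2 fold change of A-iSCs was -1.13 (standard error 0.17, adjusted p = 0.00137), and the NPC groups were at -2.65 (P56-NPCs, adjusted p = 2.92e-06) and -1.46 (P0-NPCs, adjusted p = 3.58e-05). A-iSCs exceeded P0-NPCs by 0.33 (adjusted p = 0.0328), a call lost with the replicate block (adjusted p = 0.0714), with scaling by library size alone (0.26) and without A-iSC replicate 1 or any 1 of the P0-NPC samples (0.31 to 0.34). Txnrd2, the mitochondrial enzyme, had 0.883 ± 0.515 FPKM (SD, n = 3) in ASTs and 1.26 ± 0.0263 in A-iSCs and was not called (adjusted p = 0.222).

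Srxn1 (chr2:152105516-152111376, plus strand) encodes sulfiredoxin, which returns overoxidised peroxiredoxins to use. It had 40.1, 36.5 and 37.8 FPKM in ASTs, 51.1, 49.6 and 46.4 in A-iSCs, 16.6, 19.8 and 16.6 in P56-NPCs and 3.19, 3.42 and 3.35 in P0-NPCs. The 4 groups did not overlap, with P0-NPCs lowest. The excess of A-iSCs over ASTs was small, at 0.35 (standard error 0.11, adjusted p = 0.028), and was not called with the replicate block (adjusted p = 0.0656), with upper-quartile scaling (0.23) or on leaving out any single sample but A-iSC replicate 3 (0.33 to 0.39). The distance to the NPC groups was larger, with A-iSCs 2.78-fold above P56-NPCs (log2 fold change 1.43, adjusted p = 3.1e-05) and 14.8-fold above P0-NPCs (3.53, adjusted p = 3.35e-07) in the means.

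The groups ranked differently from gene to gene. A-iSCs had the highest mean of the 4 groups for Mt1, Mt2, Nqo1, Gclc and Srxn1, ASTs for Hmox1, Gclm and Txnrd1, and P56-NPCs for Mt3 and Slc7a11. P0-NPCs had the lowest mean for 7 genes, P56-NPCs for Hmox1 and Txnrd1, and ASTs for Slc7a11. Neighbours in the order that were not called different were A-iSCs and ASTs for Mt3, Nqo1 and Gclm, and A-iSCs and P56-NPCs for Mt1, Mt2, Mt3, Gclm and Slc7a11. The 10 genes together took 0.238 to 0.296% of counted fragments in AST samples, 0.280 to 0.483% in A-iSC samples, 0.200 to 0.238% in P56-NPC samples and 0.0675 to 0.0705% in P0-NPC samples. ASTs and A-iSCs overlapped in this share only through AST replicate 2 (0.296%) and A-iSC replicate 3 (0.280%).

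Beside the 10 genes, 66 others of the same systems were listed, of which 63 were tested between A-iSCs and ASTs. Of these, 12 were higher and 18 lower in A-iSCs, with a median of -0.11 against -0.06 over all genes tested. That is 47.6% called, against 54.8% of all genes, of which 25.2% were higher and 29.6% lower. That split depends on the scaling, with 19 higher and 13 lower by library size alone and 9 higher and 21 lower by the upper quartile. In the Nrf2 and Keap1 axis, 1 of 9 genes was higher and 4 were lower, so 55.6% were called against 54.8% of all genes. Nfe2l2 averaged 52.2 FPKM in AST samples and 55.0 FPKM in A-iSC samples (log2 fold change 0.05, adjusted p = 0.869), and Keap1 had 11.9 and 10.9 FPKM (-0.11, adjusted p = 0.432). Bach1, the repressor, was the gene that rose, from 3.39 to 10.7 FPKM (1.40, adjusted p = 0.000115). Maff, a small Maf protein that partners NRF2 and BACH1, was at 121 to 143 FPKM in ASTs and 5.06 to 6.66 in A-iSCs (-4.29, adjusted p = 3.54e-06).

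Among 18 genes of glutathione synthesis, recycling and use, 3 were higher and 7 lower, again 55.6% against 54.8% of all genes. Mgst1, a microsomal glutathione transferase, rose by 2.0 on the log2 scale (adjusted p = 4.58e-05), from 23.7 to 33.6 FPKM in ASTs to 109 to 124 in A-iSCs. Its relative Mgst3 changed the opposite way, by -2.42 (adjusted p = 0.000256). The 6 genes of NADPH supply held 0 higher and 1 lower, Me1, the cytosolic malic enzyme, at -0.72 (adjusted p = 0.00777). Of 10 thioredoxins and peroxiredoxins, 1 was higher and 2 lower (30.0% called). Txnip, which binds and inhibits thioredoxin, was the higher one at 1.19 (adjusted p = 0.000524), and Txn1, thioredoxin itself, was lower at -0.80 (adjusted p = 0.00464). Txn1 thus fell together with its reductase Txnrd1.

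Among 5 genes that remove superoxide and hydrogen peroxide, Cat, catalase, was higher (0.94, adjusted p = 0.000519) and Sod3, the extracellular superoxide dismutase, was lower (-1.70, adjusted p = 0.00143). Haem and iron handling had 5 of 7 genes higher and 1 lower, with a median of 0.85, so 85.7% of these 7 genes were called against 54.8% of all genes (25.2% of all genes higher). Blvrb, a biliverdin reductase, had the largest difference on the log2(FPKM + 1) scale (1.47, adjusted p = 0.00165). In the ratio of means Slc40a1, the iron exporter ferroportin, changed more, by 12.3-fold from 0.127 to 1.57 FPKM. That ratio rests on an AST level near 0, and its log2 fold change was 1.18 (adjusted p = 0.000304). Hmox2 was also higher (0.50, adjusted p = 0.00417), and Tfrc, the transferrin receptor, was lower (-1.29, adjusted p = 0.000872). Of the 11 zinc and copper genes, 8 were tested, 1 higher and 2 lower (37.5% called). Slc39a1, a zinc importer, was higher by 0.40 (adjusted p = 0.0302) but not with upper-quartile scaling (0.27, adjusted p = 0.112), and Slc39a6, another importer, was lower (-1.41, adjusted p = 0.000154). Mtf1 had mean FPKM of 2.93 before and 2.95 after sphere culture (-0.00, adjusted p = 0.996). Slc30a1, the zinc exporter that MTF1 drives together with Mt1, was at 0.448 FPKM or less in every sample.

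**Figure D4:**
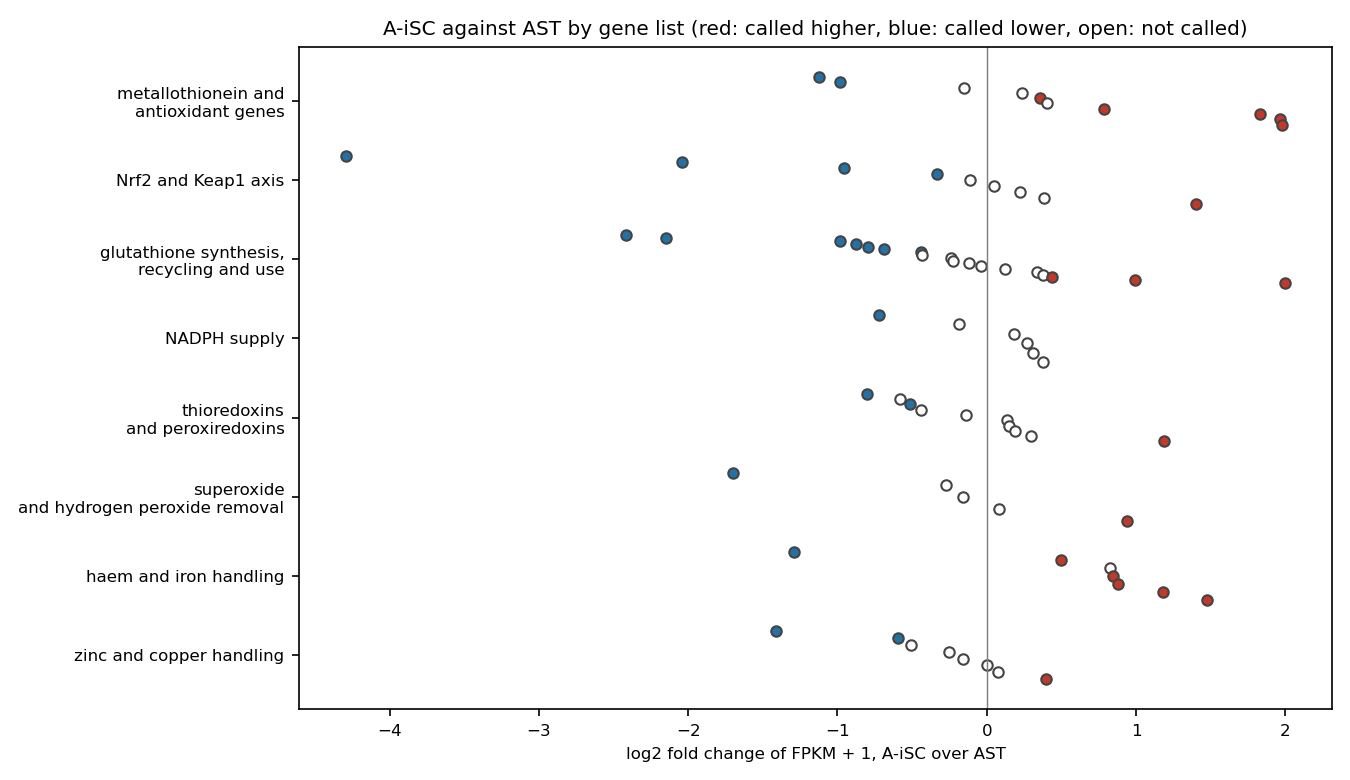
Log2 fold change of FPKM + 1 of A-iSCs over ASTs (horizontal axis) for the 10 genes and for 7 lists of other genes, 1 point per gene tested. Red points were called higher, blue points lower and open points were not called; 12 of the 63 other genes were higher and 18 lower, and scaling by library size alone turned this to 19 and 13.

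The other comparisons called more of all genes, and of these 66 genes too. Against ASTs, 16 were higher and 36 lower in P56-NPCs (82.5% of those tested, against 78.9% of all genes), and 7 were higher and 44 lower in P0-NPCs (81.0% against 79.0%), or 14 and 40 with scaling by library size alone. A-iSCs had 31 higher and 14 lower than P56-NPCs (70.3% against 61.0%), or 45 and 7 by library size alone. They had 40 higher and 11 lower than P0-NPCs (79.7% against 65.1%). P56-NPCs had 36 higher and 20 lower than P0-NPCs (88.9% against 78.8%), which turned to 20 and 32 by library size alone. Nfe2l2 was lower than in ASTs in both NPC groups, by a log2 fold change of -1.65 in P56-NPCs (adjusted p = 7.56e-06) and -3.31 in P0-NPCs (adjusted p = 2.67e-07), where its FPKM was 3.88 to 5.07. Bach1 was highest in P0-NPCs, at 16.4 to 18.8 FPKM, and Keap1 highest in P56-NPCs, at 18.9 to 21.2.

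Genes with the most similar pattern over the 12 samples were found for 4 of the 10 genes among 13650 protein-coding genes, by the root mean square distance between their centred log2(FPKM + 1) values. This is a description with no test. For Mt1 these were Rida (0.38), Ramp1 (0.39) and S100a1 (0.42), which had means of 27.6, 43.5 and 150.3 FPKM in A-iSCs against 9.90, 14.7 and 48.5 in ASTs. Mt3 was followed most closely by Rhog (0.22), S100a13 (0.29) and Hist1h4h (0.31). For Hmox1 they were Npvf (0.30), Bst2 (0.35) and Cd44 (0.36), and Cd44 had 105 FPKM in ASTs, 31.3 in A-iSCs and 1.07 or less as a mean of either NPC group. For Slc7a11 they were Slc9a9 (0.17), Nim1k (0.20) and Tpcn1 (0.21). The samples share groups and scaling, so such a match adds no evidence on any single gene.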

How the data were processed

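Per the study's methods, the 12 RNA samples became NEBNext Ultra libraries, read from both ends on an Illumina instrument. The authors deposited 1 table of FPKM for 55862 genes, with gene lengths and positions. As a check of the unit, each FPKM multiplied by the gene length and by a library size estimated for its sample gave a whole number of fragments (100% of values within 0.1), and these library sizes, set against the fragments counted, showed that the values carry a scaling between samples. The submitters' processing notes name Bowtie 0.12.2 and mm8, but GENCODE M21 shares 55154 gene identifiers with the table and places 54899 of them identically, so positions are taken as GRCm38. Whether counting used strand is not given in the sources used here. All 12 columns were used, matched to samples by name.

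Groups were compared 2 at a time with limma 3.58.1 (lmFit, eBayes with a trend) in R 4.3.3 on log2(FPKM + 1), over genes with a mean of at least 1 FPKM in at least 1 group, with Benjamini-Hochberg adjustment over all genes tested and calls at an adjusted p under 0.05. DESeq2, which the study's methods name, was not run, as the deposited values are FPKM. As an alternative, limma-voom was run on the fragments recovered from them. The fit was tested on counts simulated for A-iSCs against ASTs, with the same dispersion for all genes. The simulation held no outlying sample, so it does not cover samples that lie apart from their group. Coding sequences were aligned with Biopython. Within-sample ratios were compared by exact permutation tests. Alternatives were a pseudocount of 0.1, no filter, all 4 groups in the fit, the replicate number as a block, scaling by library size or upper quartile, limma-voom, a log2 fold change beyond 1, and leaving out each sample.

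The 10 genes, the lists and the tests were chosen with earlier results of these data known. Text names all 10 genes, the called gene with the largest and the smallest log2 fold change of A-iSCs over ASTs in each list, 7 regulators, partners or paralogs of the 10, and the 3 genes closest in pattern to Mt1, Mt3, Hmox1 and Slc7a11. Slc30a1, Slc40a1 and Mt4 were named after their values were seen. Lists also covered neuronal, endothelial and ependymal markers. Their sums were 47.5 to 124 FPKM in ASTs and A-iSCs, 195 to 238 in P56-NPCs and 761 to 937 in P0-NPCs for neurons. For endothelium they were 4.57 to 6.47 in ASTs, 1.57 to 2.45 in A-iSCs, 3.04 to 3.86 in P56-NPCs and 72.6 to 75.8 in P0-NPCs. For ependyma they were 42.8 to 51.2, 63.1 to 77.2, 262 to 356 and 80.0 to 103. Python 3.11.15 with pandas 2.3.3, numpy 2.4.6, scipy 1.17.1 and matplotlib 3.10.9 was used.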

Additional observations from a re-analysis of the deposited data

How the results depend on the processing

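Of 840 log2 fold changes of the 10 genes under the alternatives, 777 kept their direction and their side of the threshold, 47 lost the call, 6 gained it and 10 changed sign. Of 168 counts of called genes, 160 stayed within 1.5 times. These counts are totals of higher and lower genes together, so a changed split between the directions does not show in them. A required log2 fold change beyond 1 left 4 of the 10 genes called between A-iSCs and ASTs and 6 between P56-NPCs and P0-NPCs. It left 12 of the other listed genes for A-iSCs and 30 for P56-NPCs against ASTs, 25 and 33 for A-iSCs against P56-NPCs and P0-NPCs, and 20 between the NPC groups, since that rule removes small changes by construction.

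Scaling by library size alone called 8 of the 10 genes higher in A-iSCs than in P56-NPCs. It moved the median log2 fold change of all genes from 0.03 to 0.49 there, from -0.06 to 0.13 between A-iSCs and ASTs, from -0.03 to -0.34 for P56-NPCs and from -0.07 to 0.21 for P0-NPCs against ASTs, and from 0.01 to -0.53 between the NPC groups. The calls split 4563 higher to 2989 lower between A-iSCs and ASTs (3550 to 4165 with the deposited scaling), 8329 to 2857 between A-iSCs and P56-NPCs (4532 to 4643), and 3438 to 9428 between the NPC groups (6115 to 6011). For P56-NPCs and P0-NPCs against ASTs they split 4569 to 7559 (5924 to 6032) and 7106 to 4860 (5713 to 6146). Mitochondrial genes took 17.1% ± 0.548 (SD, n = 3) of fragments in P56-NPCs and 2.94 to 7.03% in all other samples, and their part in these shifts was not tested. Sign changes by this scaling were Gclm between A-iSCs and ASTs (0.052) and, between A-iSCs and P56-NPCs, Mt1 (0.56), Mt3 (0.23) and Slc7a11 (0.42). Mt1 in the last comparison was also 0.021 with upper-quartile scaling and 0.0082 with limma-voom. With a sample left out it ranged from -0.24 to 0.40, and Slc7a11 from -0.18 to 0.0051. Upper-quartile scaling moved the median of all genes to -0.17 for A-iSCs and for P56-NPCs against ASTs.

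Whether samples with the same replicate number belong together is not stated in the sources used here. Correlations of deviations from means of 3 samples cannot decide it. Deviations of A-iSC and AST samples with the same number correlated at -0.38, 0.34 and 0.43 across genes, and those of the other comparisons at -0.14 to 0.10. With the replicate block 6 of the 10 genes were called between A-iSCs and ASTs and 9 between A-iSCs and P0-NPCs, without Srxn1 and Txnrd1, and no other call of the 10 genes changed. Of the 10 genes, Mt2 had the fewest fragments, in P0-NPCs, at 82 to 177 fragments per sample.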
